A study of Mus musculus with 6 samples.

Results

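Redox, detoxification and retinoid genes were compared between mouse inner ear organoids that received PD0325901, an inhibitor of MEK kinases (PD, n = 3), and organoids that received solvent alone (DMSO, n = 3). Members were all rows of the authors' expression table whose gene name starts with the stem of one of these families: glutathione transferases and peroxidases, aldehyde dehydrogenases, cytochromes P450, aldo-keto reductases, superoxide dismutases, thioredoxin, NADPH oxidases, conjugating enzymes, retinol dehydrogenases and retinoid-binding proteins. The rule found 60 of 4994 rows, all of them protein coding. Names starting with Prdx, Nqo, Gclc, Adh, Ces, Maoa or Maob matched no row, and those genes are not analysed here.

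Most members are what the family names say, with a few exceptions. Fmod matched by its letters alone and encodes fibromodulin, a collagen-binding matrix proteoglycan. Gstcd shares only a domain with glutathione transferases. Ugt8a makes galactosylceramide, and Cyp7b1 and Cyp27a1 hydroxylate sterols.

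The PD group received 1 µM PD0325901 and the DMSO group the same volume of solvent, each for 10 days. All cultures were wild-type epithelial cells per the labels. They shared a DMEM/F12 medium in low-attachment plates, with the supplements N2 and B27 and the growth factors IGF at 50 ng/mL, EGF at 20 ng/mL and bFGF at 10 ng/mL. The medium also held the GSK3 inhibitor CHIR99021 at 3 µM and was renewed every 2 days. The inhibitor blocks MEK kinases, which activate ERK downstream of growth factor receptors, and the stated question was how it promotes the generation of inner ear hair cells, which sense sound and head movement.

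As background, glutathione transferases attach glutathione to reactive compounds, and glutathione peroxidases, thioredoxin and superoxide dismutases remove peroxides and superoxide. Cytochromes P450 and flavin monooxygenases oxidise foreign and endogenous molecules, which sulfotransferases and related enzymes then conjugate. Retinoic acid, a signal that patterns the developing inner ear, is made from retinol in successive oxidations, of which the last is carried out by the retinaldehyde dehydrogenases Aldh1a1, Aldh1a2 and Aldh1a3. It is broken down by Cyp26 enzymes and carried in the cell by Crabp proteins.

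Expression is given as the deposited value per gene and library, whose scale is not stated and which is not a read count. The depth of the libraries is therefore unknown. Over 357 genes listed at 0 in some library, the lowest value above 0 fell with transcript length (slope -0.919 on log scales, Spearman's rho -0.506, across genes that are not independent), as in a scale per length. Levels are set side by side between genes on that footing. The rows are the authors' selection on these same samples, since no row of the authors' deposited table has a change below 1.5-fold or an adjusted p above 0.0499. A difference between the groups was thus a condition for entering the table, and the counts below are descriptions, not independent evidence. Nothing in the labels tells whether replicates came from separate cultures, and p-values then reflect the spread between these samples alone, which may be technical.

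Listed values summed to between 290559.98 and 296997.34 in PD libraries and between 289255.16 and 293278.3 in DMSO libraries. Of these sums, 5 listed mitochondrially encoded protein genes made up 14.9% to 15.3% in PD and 8.5% to 9.89% in DMSO. Marker genes of the cell types in the cultures moved as well. Of 12 mesenchyme markers 11 were in the table, where 7 rose, 2 fell and 2 were not called, and their summed value was 3984.0 to 4498.83 in PD and 1753.98 to 1928.42 in DMSO. Most of that sum was Lum, Dcn and Vim, with PD means of 1794, 1603 and 803 and DMSO means of 619, 767 and 445. Of 20 otic epithelium markers 11 were in the table, 3 higher and 8 lower in PD, with summed values of 1372.21 to 1438.82 in PD and 3526.68 to 3995.8 in DMSO. Most of the drop in that sum was Otol1, with means of 220 in PD and 1690 in DMSO. The otic markers that rose were Cdh1, Tectb and Oc90. Of the general epithelial markers on that list, Epcam, Krt8 and Krt18 fell and Cdh1 rose. Epcam stood at 496.1 to 524.15 in PD and 803.1 to 866.15 in DMSO, and Cdh1 at 103.37 to 119.98 in PD and 51.84 to 54.8 in DMSO. Among hair cell markers 5 rose and 2 fell of the 7 in the table, and 1 supporting cell marker, Lgr5, fell. Of the hair cell markers that rose, Pcp4 averaged 23.1 in PD and 5.85 in DMSO. Slc17a8, Pvalb, Pou4f3 and Otof stayed at or below 1.91 in every library. Tmc1 and Cdh23 fell from means of 4.0 and 3.58 in DMSO to 0.627 and 0.4 in PD. Neuron markers gave 4 higher of 4 in the table, none above 2.68 in any library. Endothelial markers gave 3 higher and 1 lower, and glial markers 2 higher and 1 lower. These marker counts stand beside 44.5% of all rows called higher and 51.1% called lower in PD. The leukocyte marker Ptprc was listed at 0.06 to 0.21 in PD and at 0 in each DMSO library. No melanocyte or hepatocyte marker was in the table. The part of these markers in the results was not tested. In such bulk samples, fewer cells of a type and less RNA per cell cannot be told apart.

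Of the 60 members, 23 rose and 36 fell in PD by limma at an adjusted p under 0.05, and 1, Nox4, was not called. Among all 4994 rows 95.5% were called, 44.5% higher and 51.1% lower in PD, against 38.3% and 60.0% of the members. The median difference of log2(value + 1), PD minus DMSO, was -0.67 over the members and -0.42 over all rows. PD and DMSO values were fully separate in 58 of 60 members, where the same held for 95.2% of all rows. The members' share of calls was thus near that of the table. Levels varied widely: 11 members had a group mean of at least 100, and 20 stayed under 5 in both groups. The summed value of all members was 2646.25, 2637.52 and 2699.43 in PD libraries and 3887.95, 3952.39 and 3865.0 in DMSO libraries.

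**Figure D1:**
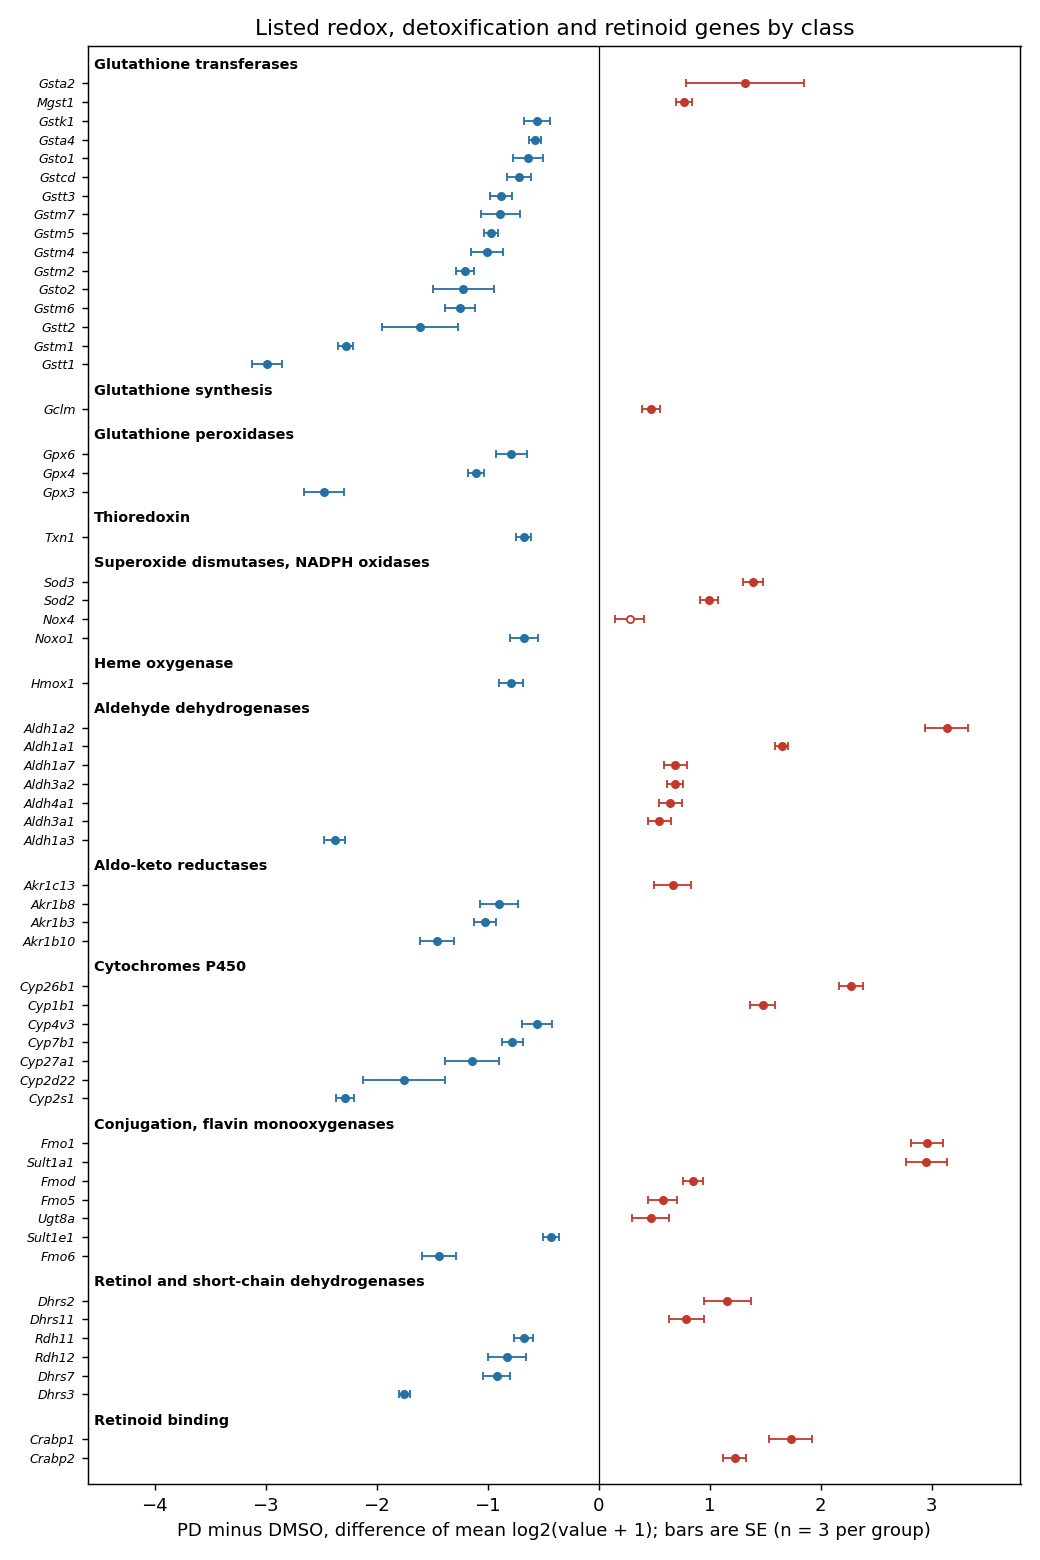
Difference of mean log2(value + 1), PD minus DMSO, for 59 members by class, with SE bars from limma (n = 3 per group); filled points were called and the open point, Nox4, was not. Of 16 glutathione transferase genes 14 lie left of zero, whereas 6 of 7 aldehyde dehydrogenase genes lie right of it.

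The retinoid genes in the table covered steps from retinol to retinoic acid and its breakdown. A change was a condition for their entry, and retinoid genes outside the table are not described. Among the retinaldehyde dehydrogenases, Aldh1a1 and Aldh1a2 rose and Aldh1a3 fell. Aldh1a1 (chromosome 19, 20492715 to 20643465, plus strand) stood at 399.63, 381.48 and 395.43 in PD libraries, against 115.76, 127.51 and 130.05 in DMSO libraries. The PD over DMSO ratio of means was 3.15 and the log2 difference 1.65 ± 0.06 (SE; adjusted p = 8.09e-07 by limma). Every PD library was above every DMSO library.

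Aldh1a3 (chromosome 7, 66390890 to 66427517, minus strand) went the other way. It stood at 122.14, 99.31 and 125.34 in PD libraries, against 569.38, 630.94 and 606.47 in DMSO libraries. The PD mean of 116 ± 14.2 and the DMSO mean of 602 ± 31 gave a log2 difference of -2.38 ± 0.09 (limma adjusted p = 1.11e-06), a DMSO over PD ratio of 5.21. Aldh1a3 was the highest aldehyde dehydrogenase gene of the table in each DMSO library, and Aldh1a1 was the highest in each PD library.

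Aldh1a2 (chromosome 9, 71215789 to 71296243, plus strand) was low in DMSO. It had values of 13.46, 17.74 and 11.09 in PD libraries, against 0.95, 0.66 and 0.49 in DMSO libraries. The log2 difference was 3.14 ± 0.19 (SE; adjusted p = 6e-06 by limma), and the PD over DMSO ratio of means was 20.1.

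The summed value of these 3 genes was 535.23, 498.53 and 531.86 in PD libraries and 686.09, 759.11 and 737.01 in DMSO libraries, without overlap. Aldh1a1 made up 75.2% ± 1.17 of the sum in PD and 17.1% ± 0.47 in DMSO, and Aldh1a3 22.1% ± 1.93 in PD and 82.8% ± 0.446 in DMSO. Aldh1a2 made up 2.72% ± 0.758 in PD and 0.097% ± 0.037 in DMSO (SD, n = 3 each). The make-up of the 3-gene sum therefore differed far more than its total, whose DMSO over PD ratio was 1.39.

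**Figure D2:**
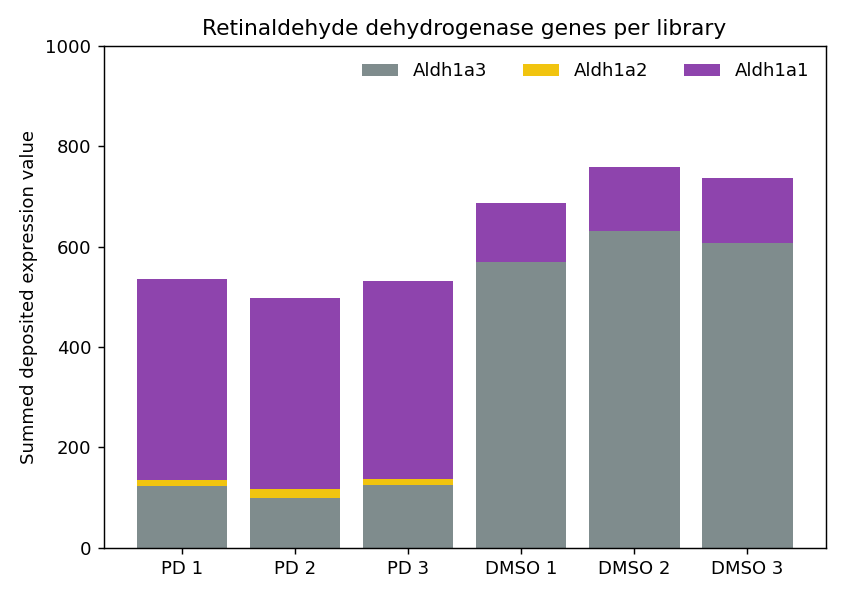
Deposited expression values of Aldh1a3, Aldh1a2 and Aldh1a1 stacked for each PD and DMSO library. Aldh1a1 fills most of each PD bar and Aldh1a3 most of each DMSO bar, while the bars reach 498.53 to 535.23 in PD and 686.09 to 759.11 in DMSO.

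Cyp26b1 (chromosome 6, 84571414 to 84593908, minus strand), which degrades retinoic acid, rose. Its values were 14.9, 15.35 and 14.82 in PD libraries, against 2.18, 2.17 and 2.61 in DMSO libraries, and its log2 difference was 2.27 ± 0.11 (SE; adjusted p = 2.38e-06 by limma). The libraries within each group lay close together, and the PD over DMSO ratio of means was 6.48.

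The promoter windows of Aldh1a2 and Cyp26b1 are shown because these genes had the largest rises among the retinoic acid enzymes and because both lie in a pathway with known DNA response elements. Windows are from RefSeq on GRCm38.p6, hold 250 bases before the gene start and 50 from it, and are written on the gene's strand. Capitals mark matches on either strand to the letters TGACNNNGC (the core of the antioxidant response element), ACGTG (the core of the hypoxia response element) and GCGTG (the core of the xenobiotic response element). A direct repeat of the letters GGTCA with 5 bases between its copies was searched too. With that spacing it is not a search for sites of retinoic acid receptors.
Aldh1a2 chr9:71215539-71215838, plus strand: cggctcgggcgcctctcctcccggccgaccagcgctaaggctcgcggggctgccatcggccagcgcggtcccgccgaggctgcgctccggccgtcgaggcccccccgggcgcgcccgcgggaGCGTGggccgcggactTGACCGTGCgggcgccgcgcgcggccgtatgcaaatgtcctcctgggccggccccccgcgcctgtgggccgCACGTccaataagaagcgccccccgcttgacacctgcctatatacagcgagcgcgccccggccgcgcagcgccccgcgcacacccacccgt
Cyp26b1 chr6:84593761-84594060, minus strand: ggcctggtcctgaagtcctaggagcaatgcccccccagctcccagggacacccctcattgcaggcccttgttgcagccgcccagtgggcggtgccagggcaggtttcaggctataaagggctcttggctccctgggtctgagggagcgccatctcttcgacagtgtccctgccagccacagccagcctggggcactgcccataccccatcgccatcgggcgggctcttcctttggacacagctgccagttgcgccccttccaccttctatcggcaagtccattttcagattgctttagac
The Aldh1a2 window held 50 CpG pairs and each of the antioxidant, hypoxia and xenobiotic cores. The Cyp26b1 window held 9 CpG pairs and no match to these letters or to the repeat.

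Across the 48 members with a window, the antioxidant core was found in 5 (10.4%, against 14% of 27025 genes), the hypoxia core in 9 (18.8%, against 21.8%) and the xenobiotic core in 23 (47.9%, against 35.2%). By the authors' direction, the xenobiotic core stood in 12 of 20 members that were higher in PD, Nox4 among them, and in 11 of 28 that were lower. The searched GGTCA repeat was found in 0 member windows and in 0.1% of all genes. Because of its spacing, these counts say nothing about sites of retinoic acid receptors. Member windows had a median GC content of 56.1%, against 52.8% over all genes. Cores on opposite strands can overlap, as in the letters CACGTG, and a match is only a match of letters.

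Dhrs3, Rdh11 and Rdh12, which interconvert retinol and retinaldehyde, fell. Dhrs3, which turns retinaldehyde back into retinol, had values of 61.66, 61.37 and 64.53 in PD libraries, against 211.42, 208.87 and 218.11 in DMSO libraries. Its log2 difference was -1.75 ± 0.05 (SE; adjusted p = 3.51e-07 by limma), the smallest adjusted p of all members. The groups were far apart relative to the spread within them. The retinol dehydrogenase gene Rdh11 fell to 16.2, 14.09 and 16.41 in PD libraries, against 24.74, 26.04 and 25.38 in DMSO libraries. Its neighbour Rdh12 averaged 0.637 ± 0.202 in PD and 1.93 ± 0.606 in DMSO.

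The Crabp genes in the table rose. Crabp2, which delivers retinoic acid to its receptors, stood at 52.12, 55.93 and 55.26 in PD libraries, against 25.18, 19.28 and 24.16 in DMSO libraries, with a log2 difference of 1.22 ± 0.10 (SE; adjusted p = 2.68e-05 by limma). Crabp1 was much lower, with values of 4.07, 2.99 and 2.54 in PD libraries, against 0.31, 0.5 and 0 in DMSO libraries (log2 difference 1.73 ± 0.19). Both Crabp genes were higher in every PD library than in any DMSO library.

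Beyond the members, 9 of 32 genes on a fixed list of retinoic acid signalling were in the table, of which 4 rose and 5 fell. Over all rows, 44.5% were called higher and 51.1% lower. Stra6, the membrane receptor for retinol uptake, had a mean of 42 ± 2.83 in PD and 166 ± 4.88 in DMSO (log2 difference -1.96 ± 0.06, limma adjusted p = 6.93e-07). Rxrg, a nuclear receptor partner, rose to 2.26 ± 0.17 in PD, against 0.173 ± 0.147 in DMSO, and the coactivator gene Ncoa1 rose by 0.86 on the log2 scale. The chemoattractant gene Rarres2 and the fatty acid binding gene Fabp5 had log2 differences of -1.27 and -1.20. Rarb, a retinoic acid receptor gene named here after its values were seen, averaged 24.8 ± 1.12 in PD and 37.9 ± 1.85 in DMSO. Rxra and Rlbp1, from the same list and also named after their values were seen, rose by 0.84 and 0.79 on the log2 scale. Rxra averaged 13.7 ± 1.12 in PD and 7.2 ± 0.282 in DMSO. Retinoic acid activity was not tested.

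**Figure D3:**
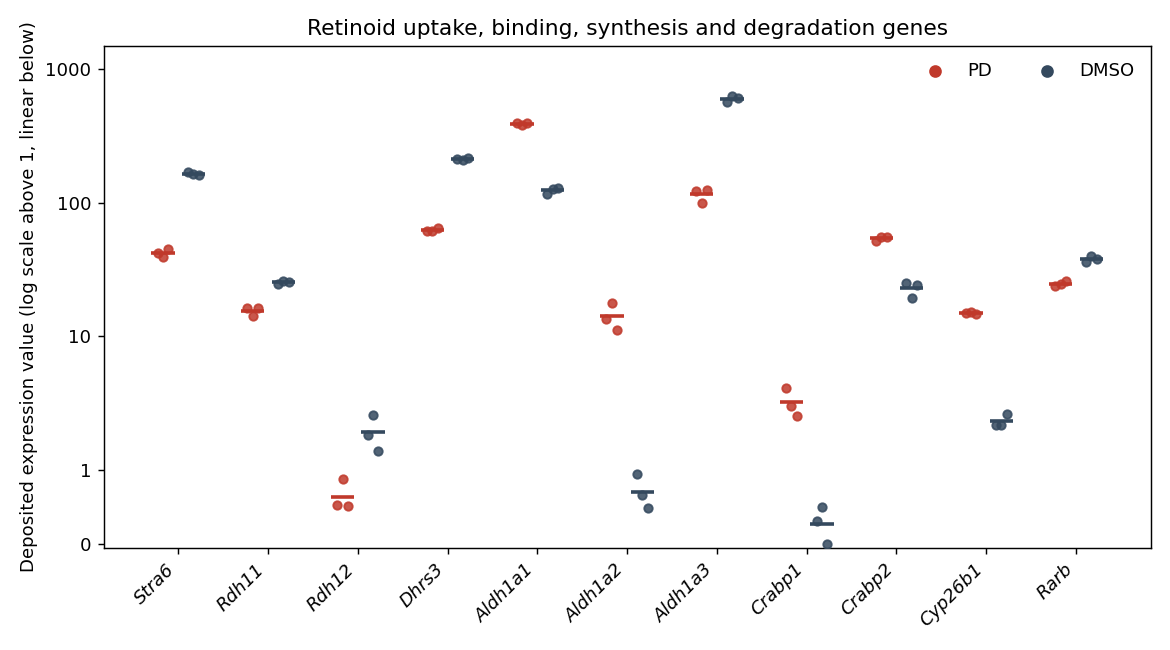
Deposited values of retinoid genes in each PD and DMSO library, with the mean of each group as a bar, on an axis that is logarithmic above 1 and linear below. Aldh1a1, Aldh1a2, Crabp1, Crabp2 and Cyp26b1 are higher in PD, and Stra6, Rdh11, Rdh12, Dhrs3, Aldh1a3 and Rarb are lower, with no overlap between groups.

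Of the 16 glutathione transferase genes in the table, 14 fell and 2, Mgst1 and Gsta2, rose in PD, beside 51.1% lower and 44.5% higher over all rows. Transferases that are not in this selection are not described by that count. Their median log2 difference was -0.93. Among them the largest fall on the log2(value + 1) scale was that of Gstt1 (chromosome 10, 75783813 to 75798584, minus strand), a theta-class transferase, at 1.3, 1.39 and 1.87 in PD libraries, against 18.62, 20.49 and 17.68 in DMSO libraries. Its log2 difference was -2.99 ± 0.13 (SE; adjusted p = 1.64e-06 by limma), with a DMSO over PD ratio of 12.5. Its neighbours Gstt2 and Gstt3 had log2 differences of -1.61 ± 0.34 and -0.88 ± 0.10, and Gstt2 ranged from 0.15 to 2.1 within the PD libraries.

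All 6 listed mu-class genes, which lie together on chromosome 3 between 107895821 and 108044894, fell. Gstm1 stood at 20.65, 23.21 and 20.69 in PD libraries, against 110.06, 105.37 and 109.47 in DMSO libraries, and its log2 difference was -2.28 ± 0.07 (SE; adjusted p = 3.93e-07 by limma). Gstm2 stood at 80.78, 86.04 and 74.36 in PD libraries, against 203.25, 177.51 and 178.61 in DMSO libraries (log2 difference -1.20 ± 0.08). The fall of Gstm1 was the deeper, and Gstm2 was the higher gene in every library. Gstm5, at 62.76, 55.7 and 57.04 in PD libraries and 115.46, 118.64 and 113.3 in DMSO libraries, fell by 0.97 on the log2 scale. Gstm4, at 5.13, 5.71 and 6.27 in PD libraries and 10.59, 15.07 and 12 in DMSO libraries, fell by 1.01. Gstm6 and Gstm7 had log2 differences of -1.25 and -0.89. The summed mu-class value was 179.83, 177.61 and 165.7 in PD libraries, against 455.25, 436.08 and 431.21 in DMSO libraries. Gstm1 is uncertain in its share of reads, because the pseudogene Gstm2-ps1 matches its transcript at 97.9% identity.

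Gsta4, which conjugates the lipid peroxidation product hydroxynonenal, and Mgst1, a membrane-bound transferase and peroxidase, were the transferases with the highest values in PD, and their libraries are given for that reason after their values were seen. Gsta4 stood at 470.78, 469.31 and 508.49 in PD libraries, against 736.73, 733.09 and 687.28 in DMSO libraries (log2 difference -0.57 ± 0.05). Mgst1 stood at 312.42, 304.57 and 329.44 in PD libraries, against 171.05, 201.29 and 183.47 in DMSO libraries (log2 difference 0.77 ± 0.07, limma adjusted p = 3.55e-05). Mgst1 therefore held 30.9% ± 0.346 of the summed transferase value in PD and 12.8% ± 0.958 in DMSO, while the share of Gsta4 was 47.3% ± 0.879 in PD and 49.7% ± 0.723 in DMSO (SD, n = 3 each). The sum itself was 1012.16, 996.51 and 1054.09 in PD libraries and 1458.45, 1483.98 and 1398.04 in DMSO libraries.

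The other transferase that rose, Gsta2, was far higher in 1 PD library than in the rest. It had values of 0.75, 0.47 and 5.9 in PD libraries, against 0, 0 and 0.14 in DMSO libraries, a log2 difference of 1.32 ± 0.53 (limma adjusted p = 0.043). Without PD replicate 3 the log2 difference was 0.62 (adjusted p = 0.00237), and without any 1 DMSO library the call was lost, at 1.29 to 1.38 (adjusted p = 0.0713 to 0.101). Its transcript is 97.2% to 98.2% identical to those of Gsta1, Gm10639 and Gm3776, so its share of reads is uncertain. The omega-class genes Gsto1 and Gsto2, the kappa-class gene Gstk1 and Gstcd had log2 differences between -1.22 and -0.56. Exons of Gstcd overlap those of Ints12 on the opposite strand, and how the counting treated strand is not given in the sources used here. Those of Gstm5 overlap 4933431E20Rik in the same way. On the same strand, exons of Gstt3, Aldh4a1, Cyp4v3 and Gclm overlap those of Gm20441, Gm21969, Gm45753 and Gm6061, so their reads may be shared.

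**Figure D4:**
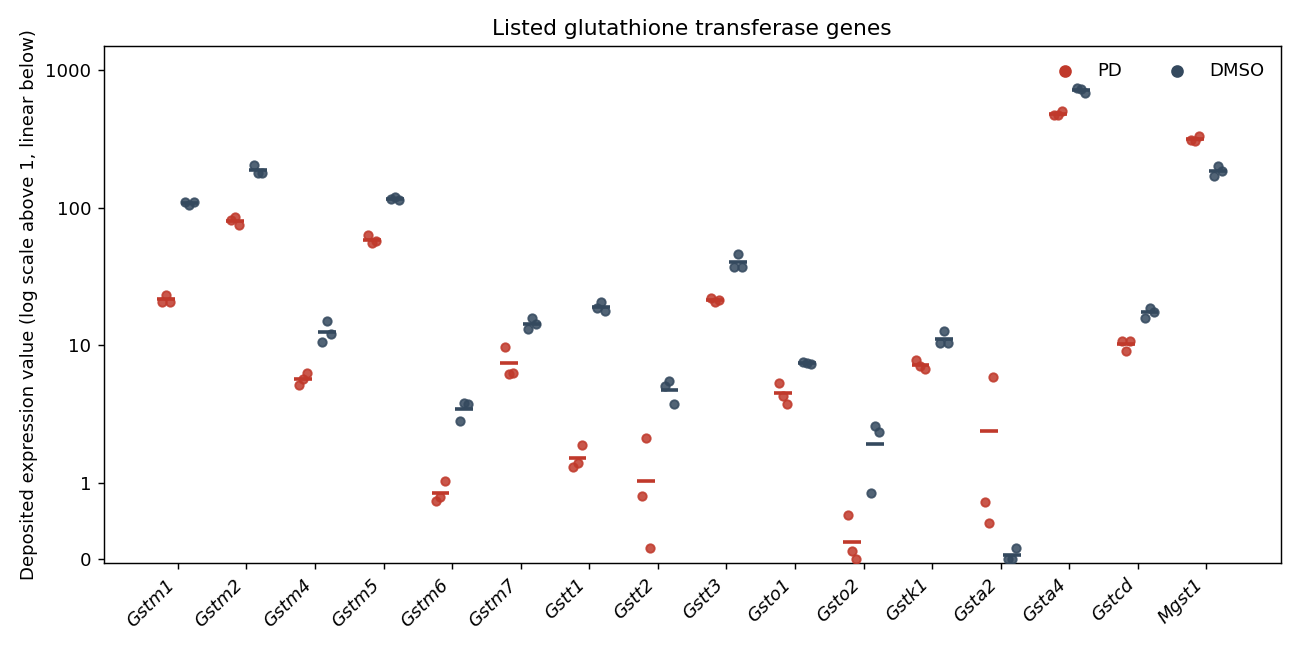
Deposited values of the 16 listed glutathione transferase genes in each PD and DMSO library, with group means as bars, on an axis that is logarithmic above 1 and linear below. Mgst1 and Gsta2 are higher in PD and the other 14 genes are lower, from Gstm1 at 20.65 to 23.21 in PD and 105.37 to 110.06 in DMSO to Gsto2, which is below 3 in every library.

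Gclm, the regulatory subunit of the ligase that starts glutathione synthesis, rose. It stood at 27.29, 26.83 and 29.6 in PD libraries, against 18.7, 19.88 and 21.09 in DMSO libraries, with a log2 difference of 0.47 ± 0.08 (SE; adjusted p = 0.000867 by limma). The change was small but the groups did not overlap. Its ratio of means was 1.40, against an authors' fold of 1.675. Ratios of these values can thus differ from the authors' folds, and Sod2 differed the other way, at 2.04 against 1.558. Exons of Gclm overlap those of Gm17494 on the opposite strand.

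The windows of Gclm and Gstm5 are shown because both genes belong to glutathione metabolism, moved in opposite directions and hold the antioxidant core, TGACNNNGC. Capitals also mark the xenobiotic cores in both windows and a hypoxia core in Gclm.
Gclm chr3:122245307-122245606, plus strand: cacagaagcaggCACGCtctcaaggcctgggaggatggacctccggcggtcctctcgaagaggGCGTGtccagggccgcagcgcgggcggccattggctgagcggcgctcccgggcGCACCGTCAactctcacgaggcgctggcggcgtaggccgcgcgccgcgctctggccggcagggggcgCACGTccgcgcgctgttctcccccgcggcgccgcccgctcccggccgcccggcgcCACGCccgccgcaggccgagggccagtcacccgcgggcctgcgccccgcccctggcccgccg
Gstm5 chr3:107895604-107895903, plus strand: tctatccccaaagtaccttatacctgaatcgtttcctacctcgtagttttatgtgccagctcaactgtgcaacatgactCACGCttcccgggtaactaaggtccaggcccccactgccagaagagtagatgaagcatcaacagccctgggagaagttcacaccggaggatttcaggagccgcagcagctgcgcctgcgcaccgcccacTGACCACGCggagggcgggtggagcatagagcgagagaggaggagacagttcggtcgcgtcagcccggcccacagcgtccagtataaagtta
The antioxidant core begins 134 bases before the start in Gclm, on the opposite strand, and 42 bases before it in Gstm5, where it overlaps a xenobiotic core.

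The 3 listed glutathione peroxidase genes fell and the 2 listed superoxide dismutase genes rose, in a table with 51.1% of rows lower and 44.5% higher. Gpx4, which reduces lipid peroxides in membranes, stood at 149.37, 170 and 142.86 in PD libraries, against 343.72, 324.25 and 330.42 in DMSO libraries, and its log2 difference was -1.11 ± 0.07 (SE; adjusted p = 7.35e-06 by limma). Gpx3, a secreted peroxidase, stood at 1.44, 1.81 and 0.99 in PD libraries, against 10.04, 13.24 and 13.98 in DMSO libraries (log2 difference -2.48 ± 0.18). The fall of Gpx3 was the deeper, at a DMSO over PD ratio of 8.79 against 2.16 for Gpx4. Gpx6 was near 0 in PD, at 0.0567 ± 0.0493 against 0.843 ± 0.353 in DMSO. Gpx4 is uncertain in its share of reads, because the pseudogene Gpx4-ps2 matches its transcript at 99.7% identity.

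Txn1, the cytosolic thioredoxin, fell. Its values were 113.71, 133.06 and 124.03 in PD libraries, against 205.16, 194.07 and 193.11 in DMSO libraries (log2 difference -0.67 ± 0.07), and a pseudogene, Txn-ps1, matches it at 95.8% identity. Hmox1, the stress-induced heme oxygenase, fell to 7.62, 8.73 and 8.83 in PD libraries, against 13.8, 16.29 and 15.69 in DMSO libraries (log2 difference -0.79 ± 0.11). Neither gene overlapped between the groups.

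Sod2, the mitochondrial superoxide dismutase, stood at 50.38, 61.19 and 54.95 in PD libraries, against 27.13, 27.13 and 27.54 in DMSO libraries, with a log2 difference of 0.99 ± 0.08 (SE; adjusted p = 2.14e-05 by limma). Sod3, the extracellular form, averaged 2.1 ± 0.149 in PD and 0.183 ± 0.0208 in DMSO. Both dismutase genes were higher in every PD library than in any DMSO library. Noxo1, the organizer subunit of an NADPH oxidase, fell to 31.6, 32.01 and 23.23 in PD libraries, against 46.34, 45.25 and 47.34 in DMSO libraries, and its exons overlap those of Tbl3 on the opposite strand. Nox4, a superoxide and hydrogen peroxide producing oxidase, was not called. It stood at 1.29, 1.26 and 1.1 in PD libraries and 0.63, 1.15 and 0.74 in DMSO libraries (log2 difference 0.28 ± 0.13, limma adjusted p = 0.0683), and the groups overlapped. It passed the threshold at 0.33 and 0.35 on the log2 scale under quantile and median-centred scaling (adjusted p = 0.0299 and 0.0275), and at 0.40 without DMSO replicate 2 (adjusted p = 0.0136).

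Of the 7 cytochromes P450, 2 rose and 5 fell, beside 44.5% higher and 51.1% lower over all rows. Besides Cyp26b1, described above, Cyp1b1 rose, an enzyme known for estrogen and retinol oxidation and a target of the aryl hydrocarbon receptor. It stood at 23.85, 21.35 and 23.63 in PD libraries, against 6.59, 8.57 and 7.7 in DMSO libraries, and its log2 difference was 1.48 ± 0.11 (SE; adjusted p = 1.57e-05 by limma). All PD libraries were above all DMSO libraries. Its window is shown because the xenobiotic core in capitals is the letters that receptor binds.
Cyp1b1 chr17:79715012-79715311, minus strand: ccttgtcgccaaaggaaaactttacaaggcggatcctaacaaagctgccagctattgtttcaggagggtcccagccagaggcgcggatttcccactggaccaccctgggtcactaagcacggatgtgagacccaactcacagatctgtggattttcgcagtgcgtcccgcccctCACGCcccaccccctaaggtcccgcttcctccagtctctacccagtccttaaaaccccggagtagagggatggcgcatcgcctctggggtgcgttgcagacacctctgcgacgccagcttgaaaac
The core begins 76 bases before the start, on the opposite strand. Of 11 genes fixed for the aryl hydrocarbon receptor axis, 0 were in the table.

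Cyp2s1, an epithelial P450, had the largest fall of the P450 genes on the log2(value + 1) scale, though not by ratio, where Cyp2d22 was first. It stood at 14.89, 14.97 and 12.99 in PD libraries, against 69.44, 76.53 and 74.72 in DMSO libraries, with a log2 difference of -2.29 ± 0.08 (SE; adjusted p = 7.99e-07 by limma). It was also the highest P450 gene in DMSO, and Cyp1b1 was the highest in PD. Exons of Cyp2s1 overlap those of Gm26707 on the opposite strand. Cyp7b1, an oxysterol hydroxylase, fell to 8.68, 7.95 and 9.02 in PD libraries, against 14.92, 15.8 and 15.35 in DMSO libraries. Cyp4v3, a fatty acid hydroxylase, fell to 3.22, 3.65 and 2.86 in PD libraries, against 5.04, 5.85 and 4.8 in DMSO libraries. The falls of these 2 genes, -0.78 and -0.55 on the log2 scale, were smaller. Cyp27a1 averaged 0.497 ± 0.384 in PD and 2.31 ± 0.807 in DMSO. Cyp2d22 stood at 0.14, 0.11 and 0 in PD libraries, against 1.6, 6.08 and 1.64 in DMSO libraries, where replicate 2 was high; these libraries are given because of that spread, after the values were seen.

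Among flavin monooxygenases and sulfotransferases, single genes rose from low levels in DMSO. Fmo1 stood at 18.12, 15.88 and 17.06 in PD libraries, against 1.34, 1 and 1.67 in DMSO libraries, and its log2 difference was 2.96 ± 0.14 (SE; adjusted p = 2.27e-06 by limma). Sult1a1, which sulfates phenols, stood at 12.42, 13.17 and 12.38 in PD libraries, against 0.97, 0.34 and 1.09 in DMSO libraries (log2 difference 2.95 ± 0.19, limma adjusted p = 6.54e-06). Both were higher in every PD library than in any DMSO library. Exons of Sult1a1 overlap those of Sgf29 on the opposite strand.

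The other genes of this class stayed low. Fmo6, which lies 49.9 kb from Fmo1, averaged 0.0367 ± 0.0635 in PD and 1.84 ± 0.57 in DMSO, the opposite direction of its neighbour. Fmo5 averaged 1.56 ± 0.0755 in PD and 0.73 ± 0.256 in DMSO. Sult1e1, an estrogen sulfotransferase, was listed at 0 in each PD library and at 0.27 to 0.43 in DMSO libraries. Ugt8a averaged 0.807 ± 0.318 in PD and 0.303 ± 0.201 in DMSO, and its groups overlapped (limma adjusted p = 0.0282). The call of Ugt8a was lost without PD replicate 1 or 3 and without DMSO replicate 2 or 3, at log2 differences of 0.42, 0.36, 0.49 and 0.34 and adjusted p of 0.0795, 0.0873, 0.0558 and 0.0921. Fmod, the proteoglycan gene that is no enzyme, averaged 0.95 ± 0.181 in PD and 0.08 ± 0.0173 in DMSO.

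The 4 aldehyde dehydrogenase genes other than Aldh1a1, Aldh1a2 and Aldh1a3 were higher in PD, in a table with 44.5% of rows called higher. Aldh1a7, whose gene lies 49.5 kb from Aldh1a1, stood at 55.87, 44.18 and 53.99 in PD libraries, against 28.96, 32.48 and 32.64 in DMSO libraries (log2 difference 0.69 ± 0.10). Aldh3a2, which oxidises fatty aldehydes, stood at 69.7, 68.9 and 75.57 in PD libraries, against 44.94, 46.03 and 41.09 in DMSO libraries (log2 difference 0.69 ± 0.07). Aldh4a1, of mitochondrial proline breakdown, averaged 13.4 ± 0.721 in PD and 8.2 ± 0.749 in DMSO. The ratio of means was 1.62 to 1.64 in Aldh1a7, Aldh3a2 and Aldh4a1, against 3.15 in Aldh1a1. Aldh3a1, known for its abundance in the cornea, was listed at 0 in each DMSO library and at 0.31 to 0.7 in PD libraries.

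Of the 4 aldo-keto reductases, the 3 neighbours on chromosome 6 fell, in a table with 51.1% of rows called lower. Akr1b3, aldose reductase, stood at 43.15, 34.66 and 43.63 in PD libraries, against 85.71, 80.02 and 83.14 in DMSO libraries, with a log2 difference of -1.02 ± 0.10 (SE; adjusted p = 4.07e-05 by limma). Its transcript is 99.7% identical to that of Gm38056, which is also in the table, so its share of reads is uncertain. Akr1b10 stood at 4.81, 5.55 and 4.27 in PD libraries, against 12.29, 17.63 and 15.79 in DMSO libraries (log2 difference -1.46 ± 0.16). Akr1b8 averaged 0.463 ± 0.142 in PD and 1.76 ± 0.64 in DMSO. Akr1c13, on another chromosome, averaged 0.707 ± 0.378 in PD and 0.0567 ± 0.0493 in DMSO.

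The other short-chain dehydrogenases split. Dhrs7 fell to 13.39, 14.93 and 12.33 in PD libraries, against 26.15, 30.57 and 23.03 in DMSO libraries (log2 difference -0.92 ± 0.12). Dhrs11, a steroid dehydrogenase, rose to 8.61, 11.48 and 10.88 in PD libraries, against 5.79, 4.48 and 6.4 in DMSO libraries (log2 difference 0.79 ± 0.16). Dhrs2 averaged 2.03 ± 0.828 in PD and 0.32 ± 0.0819 in DMSO. Of the 6 genes in the class, retinol dehydrogenases included, 2 rose and 4 fell, beside 44.5% higher and 51.1% lower over all rows.

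Other genes that respond to the transcription factor NRF2 or serve glutathione were described from a fixed list. Of its 44 genes 17 were in the table, of which 3 rose, 13 fell and 1, Ggct, was not called, with a median log2 difference of -0.80, in a table where 51.1% of all rows were called lower. The 27 others are not analysed here. The NADPH source Me1 averaged 53.3 ± 4.38 in PD and 163 ± 12.7 in DMSO (log2 difference -1.59 ± 0.08, limma adjusted p = 3.06e-06), and G6pdx, the entry enzyme of the pentose phosphate pathway, 54.9 ± 2.17 in PD and 109 ± 4.9 in DMSO. The metal ion transporter gene Slc39a8, the biliverdin reductase gene Blvrb and the transcription factor gene Maff had log2 differences of -1.43, -2.22 and -2.43. Those that rose, named after their values were seen, were Cat, which encodes catalase, Chac1, which degrades glutathione, and the transporter gene Abcc5, by 0.71, 1.91 and 1.62 on the log2 scale. Ggct averaged 1.23 ± 0.702 in PD and 2.2 ± 1.29 in DMSO.

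On the list of metal and thiol redox genes, 8 of 29 were in the table, 4 higher and 4 lower in PD. Over all rows, 44.5% were called higher and 51.1% lower. Selenop, which carries selenium, averaged 110.3 ± 7.49 in PD and 24.3 ± 1.71 in DMSO (log2 difference 2.13 ± 0.08, limma adjusted p = 8.61e-07). Ero1l, an oxidase of protein folding that hypoxia is known to induce, averaged 33.2 ± 1.04 in PD and 214 ± 46.4 in DMSO. Glrx3, Sesn3 and Sesn2 had log2 differences of -0.61, 0.75 and 0.87. Of 12 amine metabolism genes 2 were in the table, with Aoc3 at a log2 difference of 1.90 and Paox at -1.03. Of 11 NADPH oxidase subunit genes beyond the members, 0 were in the table.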

How the data were processed

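RNA was sequenced from 6 organoid samples, 3 per group, and the kit kept strand, per the labels' protocols. Trimming, alignment, counting and testing tools appear in the submitters' processing notes (DESeq2, HTSeq, HISAT2, Trimmomatic), with mm10 as the build. Not given in the sources used here are what each did, its version and its settings, strand included. The authors deposited a normalized signal per gene and library with 2 decimals and no stated scale, their group means, a fold ratio (PD over DMSO) also given as log2, and p-values before and after adjustment. Columns without a sample numbered 0.

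Differences were tested with limma 3.58.1 (R 4.3.3) on log2(value + 1), letting the spread depend on the level, over all 4994 rows and 6 libraries. The Benjamini-Hochberg adjustment ran over all rows, and an adjusted p under 0.05 was called. The pseudocount understates changes of genes with low values. The procedure was tested on simulated data in which most genes did not change. That setting differs from this table of selected rows, so the adjusted p-values here are not covered by it. Errors of means are SD and those of log2 differences SE. No filter on low values was used; 52 of 60 members reached 1 in at least 3 libraries and 8 did not.

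Coordinates are 1-based from GENCODE M21 (GRCm38, the assembly of mm10), which holds all 60 members. Near-identical transcripts were sought with blastn 2.17.0 at 95% identity over 80% of the shorter transcript and at least 300 aligned bases. Promoter windows are RefSeq's, available for 48 members.

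Libraries are given singly for up to 5 called members per class with the largest log2 differences among those with a group mean of at least 5, and for members not called. Each fixed list names up to 5 genes by adjusted p. Other genes named from the lists, and the libraries given for Gsta4, Mgst1, Gsta2, Crabp1 and Cyp2d22, were chosen after their values were seen. The members and lists were chosen with earlier results of these data known. 1 member, counted with the others, is not reported here by its values.

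Alternatives changed the scaling, the pseudocount, the filter and the trend, added a replicate block, or left out 1 library.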

Additional observations from a re-analysis of the deposited data

How the results depend on the processing

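All 60 members kept their direction under the 13 other settings in which they could be fitted, and 57 also kept their call. The exceptions were Gsta2, Nox4 and Ugt8a. Between 57 and 59 members were called when each library was left out in turn, 21 to 23 higher and 36 lower in PD, against 59, 23 and 36 with all libraries. Same-numbered libraries did not deviate together from their group means (correlations of -0.0374, -0.0009 and -0.0057 over 4235 genes). Libraries with different numbers gave -0.0234 to 0.03. With 3 libraries per group, such values cannot tell whether same-numbered samples shared a culture. With the replicate number as a block, 59 members were called, 23 higher and 36 lower, so the block changed no call. The filter on low values left 4 of the 7 conjugation and monooxygenase genes to test, and all 4 were called; the lower count follows from fewer genes tested. Leaving out Fmod, chosen after seeing the data, gave 58 called members. Gsta2 missed the threshold under quantile scaling (log2 difference 1.36, adjusted p = 0.0517), a pseudocount of 5 (0.47, 0.0995), no trend (1.32, 0.0541) and without any 1 DMSO library (1.29 to 1.38, 0.0713 to 0.101); the cause was not tested. Quantile and median-centred scaling shifted the log2 differences by a median of 0.118 and 0.119 over all rows, and no member changed direction. Depth is unknown, so no counting limit can be given for genes with values near 0.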

Other observations

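The members' positions, which the naming rule did not use, formed several short clusters. Of 15 pairs of neighbouring members less than 150 kb apart, 13 had the same direction in the authors' deposited table, and Fmo1 with Fmo6 and Gsta4 with Gsta2 had opposite ones. Among all neighbouring pairs of rows at that distance, 1728 of 2623 (65.9%) had the same direction. The member pairs are mostly gene duplicates of 1 family, such as the 6 mu-class transferases, and are not independent of each other.

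Sdr16c5, a retinol dehydrogenase gene outside the naming rule, was singled out for its spread after its values were seen. It was listed at 0.07, 0 and 0 in PD libraries and at 4.69, 22.37 and 4.01 in DMSO libraries. DMSO replicate 2, the high library there, was also the highest in Cyp2d22, at 6.08 against 1.6 and 1.64 in the other DMSO libraries.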
